A study of Homo sapiens with 6 samples.

Results

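PC9 is a human lung adenocarcinoma line whose EGFR gene carries the deletion labelled E19Del, an activating change in the kinase that makes the cells depend on EGFR signalling. The comparison described here is between PC9-GR, the subline selected with gefitinib and labelled resistant, and the nontreated PC9 parental line, labelled sensitive. These are 2 of the 6 libraries of the study, which holds 3 EGFR-mutant lines with 1 resistant and 1 parental library each. Both PC9 states share the E19Del allele, the lung origin and the same medium with fetal bovine serum. Gefitinib blocks the EGFR kinase reversibly, and its dose was raised step by step over 90 days. The IC50, the drug concentration at which viability is midway between none and full inhibition, is given for the 3 lines together, at 4.288 to 12.485 µM in the resistant sublines and 0.016 to 0.07 µM in the parental lines. The labels do not say whether PC9-GR was a clone or a pool, nor whether gefitinib was present when RNA was taken. With 1 library per state there is no replicate and no p-value anywhere below, so differences are those between 2 libraries, and intervals cover counting error only. The other pairs, set beside PC9 where named, are gefitinib-selected HCC827-GR against HCC827 (E19Del) and osimertinib-selected H1975-OR against H1975 (L858R/T790M).

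The unit of comparison was the gene, and 9850 of the 21463 genes in the files were compared. Levels are in CPM, the exon reads of a gene scaled to a library of 1000000 exon reads, and a gene was included when it had at least 10 CPM in either library. A gene under 10 CPM in 1 library was thus compared only if the other library held more of it. The filter sets the direction of every such gene named below, on the higher and on the lower side. The log2 ratio is that of PC9-GR over PC9 after 1 CPM was added to each. A gene just inside the limit was NDST2, at 10.0 CPM in PC9-GR and 8.20 CPM in PC9, and one just outside was LY75-CD302, at 6.05 CPM in PC9-GR and 9.99 CPM in PC9.

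EGFR is a receptor tyrosine kinase of the cell surface. When active it drives the RAS, RAF, MEK and ERK cascade, which switches on immediate-early genes and a set of feedback inhibitors, and it drives the PI3K and AKT pathway. Resistance to EGFR inhibitors is known to arise through second-site mutations in EGFR, through other receptors such as MET and AXL, and through a shift of the cells toward a mesenchymal or other cell state. Read counts bear on cell state and on the level of receptor messages, and show neither a mutation nor the activity of a kinase.

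The PC9-GR library held 24463011 exon reads and the PC9 library 21222102, of which 91.7% mapped uniquely in each. Intron reads made up 5.79% of gene reads in PC9-GR and 7.01% in PC9, and mitochondrially encoded genes took 6.86% of exon reads in PC9-GR and 6.47% in PC9. The level that a count of 0 still permits, taken as 3 reads, was 0.123 CPM in PC9-GR and 0.141 CPM in PC9. Epithelial genes were high in both libraries, with KRT7 at 2210 CPM in PC9-GR and 2082 CPM in PC9 and EPCAM at 714 CPM in PC9-GR and 725 CPM in PC9. Some lung lineage markers were near 0 in both: NKX2-1 had 6 reads in PC9-GR and 2 in PC9, NAPSA had 8 in PC9-GR and 3 in PC9, and SFTPC had none in either. Of 26 listed alveolar and lung factors 5 reached 10 CPM: CAV1 at 434 CPM in PC9-GR and 534 CPM in PC9, LPCAT1 at 286 CPM in PC9-GR and 228 CPM in PC9, CEBPA at 21.6 CPM in PC9-GR and 17.7 CPM in PC9, the surfactant lipid transporter ABCA3 at 15.7 CPM in PC9-GR and 14.8 CPM in PC9, and FOXA1 at 13.1 CPM in PC9-GR and 31.1 CPM in PC9. FOXA1, a forkhead factor of lung and other epithelia, was the 1 of these past 2-fold (log2 ratio −1.19). In bulk RNA, fewer cells of a type and less RNA per cell cannot be told apart.

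Most genes kept their level within 2-fold between the resistant and the parental library. The median log2 ratio over the 9850 genes was −0.01, with the middle 50% of genes between −0.22 and 0.20. In PC9-GR 237 genes were higher by 2-fold or more, 2.41% of those compared, and 163 were lower by 2-fold or more, 1.65%. A 4-fold difference was reached by 34 higher and 14 lower genes, and an 8-fold difference by 5 higher and 5 lower genes. Of all compared genes, 4769 had a log2 ratio above 0 and 5081 below 0. The counts given for gene lists are to be read beside these shares over all compared genes. No compared gene was at 0 reads in either library. The same rule gave 943 higher and 941 lower genes among 10192 in HCC827, and 155 higher and 398 lower among 10087 in H1975.

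**Figure D1:**
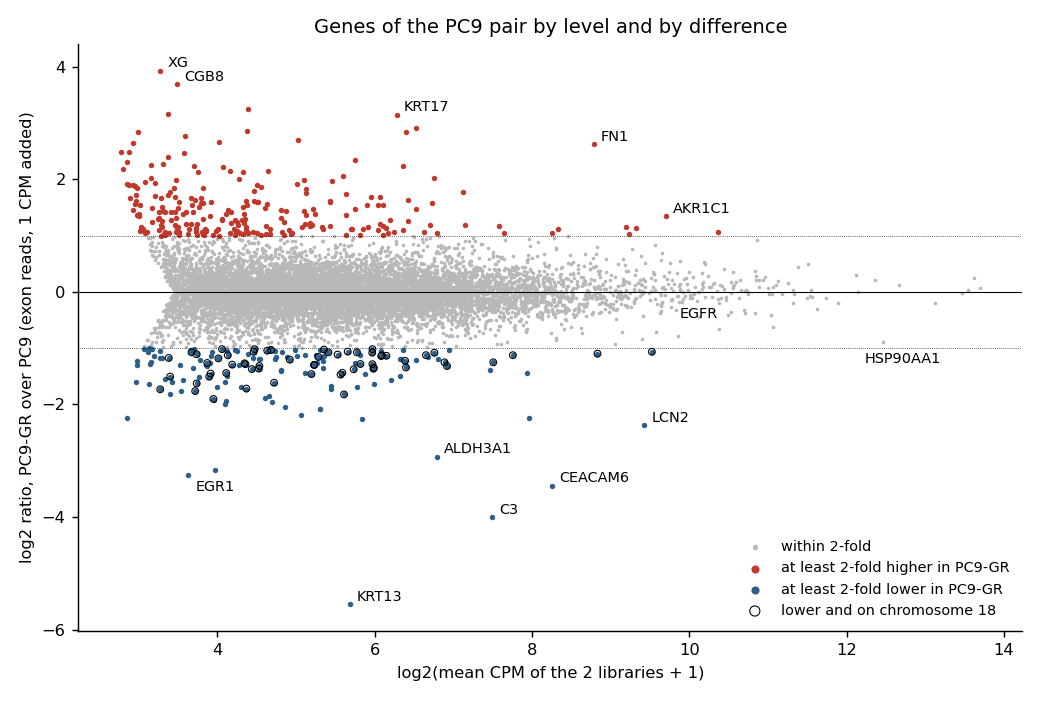
Each point is 1 of the 9850 compared genes, with its mean level in the 2 libraries on the horizontal axis (log2 of CPM + 1) and its log2 ratio of PC9-GR over PC9 on the vertical axis. The 237 higher genes are in red and the 163 lower ones in blue, and black rings mark the 60 lower genes on chromosome 18.

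The lowest log2 ratios were those of KRT13, C3 and CEACAM6. KRT13 (ENSG00000171401, hg38 chromosome 17, 41500981 to 41505705, minus strand), a keratin of stratified mucosa, had 28 reads in PC9-GR and 2108 in PC9, which is 1.14 CPM in PC9-GR against 99.3 CPM in PC9 (log2 ratio −5.55). C3 (ENSG00000125730, chromosome 19, 6677704 to 6730562, minus strand), the central complement protein, was at 20.03 CPM in PC9-GR and 337 CPM in PC9 (log2 ratio −4.01). CEACAM6, a cell adhesion molecule of glandular epithelia, was at 50.4 CPM in PC9-GR and 560 CPM in PC9 (log2 ratio −3.45). Each was more than 8-fold lower in PC9-GR. The counting interval of the CPM ratio of PC9-GR over PC9 was 0.00764 to 0.0167 for KRT13, 0.0542 to 0.0652 for C3 and 0.0848 to 0.0954 for CEACAM6.

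Others among the 15 lowest have varied roles. The aldehyde dehydrogenase ALDH3A1 was at 24.5 CPM in PC9-GR and 194 CPM in PC9 (log2 ratio −2.93). The iron-siderophore binding protein LCN2 was at 221 CPM in PC9-GR and 1150 CPM in PC9 (log2 ratio −2.37). Log2 ratios were −2.26 for the neuropeptide gene NMB, −2.25 for TNFAIP2, −2.20 for AGR2, a disulfide isomerase of secretory cells, −2.08 for CA2, a carbonic anhydrase, −2.04 for the sphingosine-1-phosphate transporter SPNS2 and −1.99 for the phosphodiesterase PDE2A. SLX1B, also in this set at −3.17, had 3.66% uniquely mapping reads and a log2 ratio of −0.12 in unique reads alone, so its value is uncertain.

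At the other end, XG (ENSG00000124343, chromosome X, 2752048 to 2816500, plus strand), which codes for a blood group antigen, had 419 reads in PC9-GR and 4 in PC9. Its CPM ratio of 90.9 carried a counting interval of 35.2 to 335, and its log2 ratio with 1 CPM added was 3.93. KRT17, a keratin of basal and injured epithelium, was at 138 CPM in PC9-GR and 14.8 CPM in PC9 (log2 ratio 3.14). FN1, the matrix protein fibronectin, was at 757 CPM in PC9-GR and 122 CPM in PC9 (log2 ratio 2.62). KRT17 and FN1 were abundant in the resistant library, whereas XG, the guanine nucleotide exchange factor DOCK10 (17.7 CPM in PC9-GR, 1.08 CPM in PC9), DGKI and HPCAL4 stayed under 20 CPM in both. Further members of the 15 highest were NEURL1 (log2 ratio 2.85), IGFN1 (2.84), the ATP-binding cassette protein ABCC9 (2.77), the fibrillar collagen COL5A1 (2.69) and the collagen receptor MRC2 (2.67). KRT81, at 3.25, had 57.9% uniquely mapping reads and is uncertain.

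**Figure D2:**
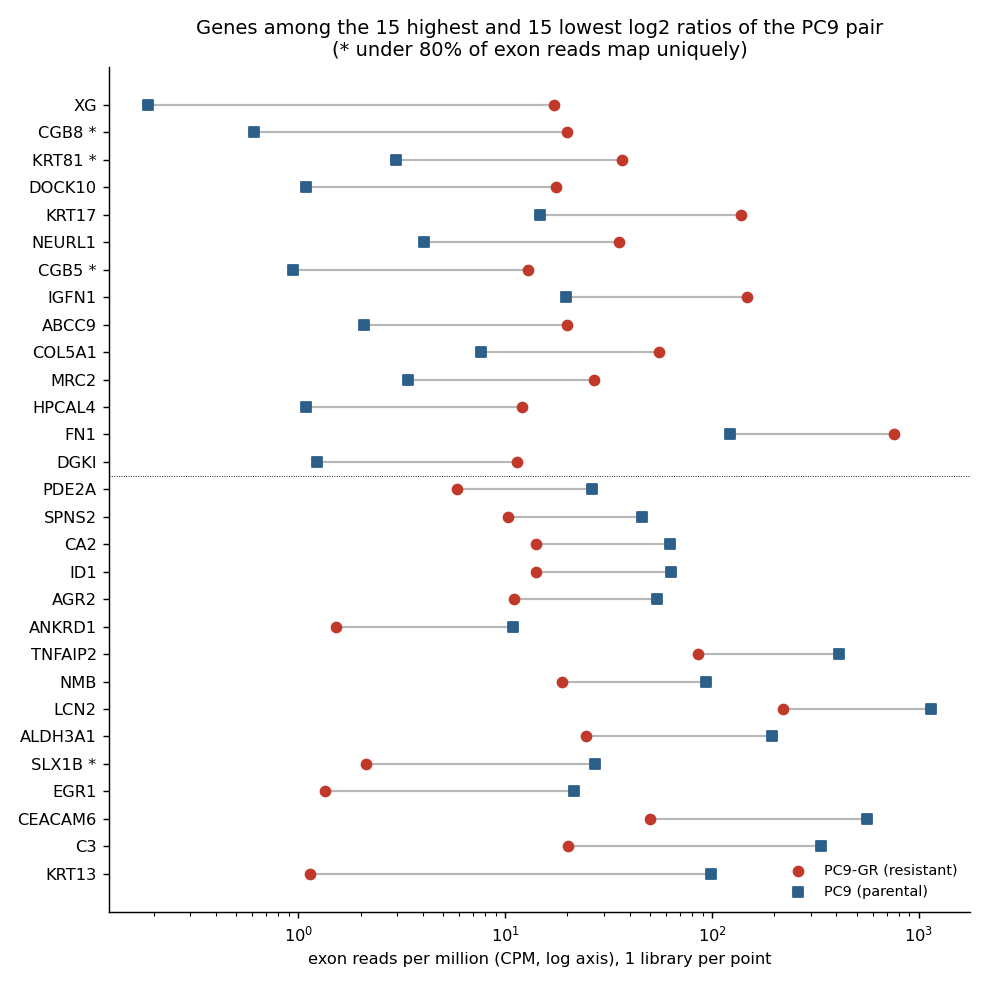
Level in CPM in PC9-GR (red circles) and PC9 (blue squares) for genes among the 15 highest and the 15 lowest log2 ratios of protein-coding genes, on a log axis. Of the 15 highest, 14 are drawn. Each point is 1 library. KRT13, at the bottom, has the lowest log2 ratio, at 1.14 CPM in PC9-GR and 99.3 CPM in PC9.

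EGFR and its family were little different between the states. EGFR (ENSG00000146648, chromosome 7, 55019021 to 55211628, plus strand) was at 834 CPM in PC9-GR and 921 CPM in PC9, a log2 ratio of −0.14 with a CPM ratio of 0.906 (counting interval 0.888 to 0.924). The co-receptor ERBB2 was at 55.0 CPM in PC9-GR and 70.5 CPM in PC9 (log2 ratio −0.35). ERBB3, which signals through PI3K, was at 69.2 CPM in PC9-GR and 91.8 CPM in PC9 (log2 ratio −0.40), with 57.5% uniquely mapping reads. Of 9 compared receptors and ligands of the family, 1 was higher by 2-fold or more and 1 lower, and both were ligands. EPGN, the ligand epigen, was at 11.2 CPM in PC9-GR and 2.31 CPM in PC9 (log2 ratio 1.88), and HBEGF, the heparin-binding ligand, was at 54.7 CPM in PC9-GR and 128 CPM in PC9 (log2 ratio −1.21). AREG, TGFA, EREG and EGF lay between −0.29 and 0.15.

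Among the other receptor tyrosine kinases and their ligands, 3 of 20 compared genes were higher by 2-fold or more, beside 2.41% of all genes. Lower by 2-fold or more were 0, beside 1.65%. The median log2 ratio was 0.41, beside −0.01 over all genes. FGFR1, a receptor for fibroblast growth factors, was at 53.6 CPM in PC9-GR and 19.98 CPM in PC9 (log2 ratio 1.38). PROS1, a ligand of the TAM receptors, was at 19.2 CPM in PC9-GR and 6.08 CPM in PC9 (log2 ratio 1.51), and VEGFC, a lymphatic growth factor, was at 22.6 CPM in PC9-GR and 8.76 CPM in PC9 (log2 ratio 1.27). The TAM receptor AXL did not reach 2-fold, at 325 CPM in PC9-GR and 170 CPM in PC9 (log2 ratio 0.93), and its ligand GAS6 had a log2 ratio of 0.73. MET, the hepatocyte growth factor receptor, was at 243 CPM in PC9-GR and 273 CPM in PC9 (log2 ratio −0.16). PROS1, VEGFC and the list members PDGFA and FGFBP1 were under 10 CPM in PC9. These genes passed the limit only through PC9-GR, so the filter set their direction. FGFR1, AXL and GAS6, above the limit in both libraries, were on the higher side in PC9-GR, and EGFR and MET a little on the lower side. Below the receptors, log2 ratios were −0.16 for BRAF (55.7% unique reads), −0.31 for the PI3K subunit PIK3CA and −0.52 for the RAS inactivator NF1.

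Genes that ERK signalling is known to induce were mostly lower in PC9-GR, by small amounts. Of 21 compared genes 17 had a log2 ratio below 0, beside 5081 of all 9850 genes, and the median was −0.37. Lower by 2-fold or more were 3, beside 1.65% of all genes, and 0 were higher. EGR1 (ENSG00000120738, chromosome 5, 138465490 to 138469315, plus strand), an immediate-early zinc finger factor, had 33 reads in PC9-GR and 455 in PC9, which is 1.35 CPM in PC9-GR against 21.4 CPM in PC9 (log2 ratio −3.26). The ERK phosphatase DUSP6 was at 21.8 CPM in PC9-GR and 57.3 CPM in PC9 (log2 ratio −1.36), and SPRY1, a feedback inhibitor of receptor signalling, was at 4.95 CPM in PC9-GR and 12.3 CPM in PC9 (log2 ratio −1.17). The related inhibitors SPRY2, SPRY4, SPRED1 and SPRED2 lay between −0.87 and −0.43, and the immediate-early gene IER2 was at −0.88. Cyclin D1, CCND1, was at 299 CPM in PC9-GR and 494 CPM in PC9 (log2 ratio −0.72), with 71.1% unique reads. Some members were even or higher: DUSP4 was at 231 CPM in PC9-GR and 230 CPM in PC9, and the AP-1 member FOSL1 was at 257 CPM in PC9-GR and 192 CPM in PC9 (log2 ratio 0.42).

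The promoter of EGR1, the lowest of these genes, is shown because serum response elements are the best known route from ERK to this gene. The window runs from 250 bases before the transcript start to 50 after it (RefSeq, GRCh38.p14, chr5:138465229-138465528, plus strand), and capitals mark the 2 matches to the CArG box, the core of the serum response element.

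EGR1: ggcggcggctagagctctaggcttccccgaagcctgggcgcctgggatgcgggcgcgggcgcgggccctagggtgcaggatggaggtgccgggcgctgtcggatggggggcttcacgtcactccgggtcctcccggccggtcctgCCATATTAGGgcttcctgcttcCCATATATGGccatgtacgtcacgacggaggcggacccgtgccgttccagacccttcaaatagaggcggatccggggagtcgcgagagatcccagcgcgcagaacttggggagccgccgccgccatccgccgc

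A CArG box on either strand was held by 1.29% of the 27305 promoters of the same length in the table. Of the 26 listed ERK-induced genes, which include some not compared such as EGR2, 17 had a promoter there. EGR1 was the only 1 of these 17 with the box. The AP-1 site TGANTCA was found in 1 of the 17 (FOSL2), against 7.76% of all promoters, and the TEAD site GGAATG on either strand in 2 (SPRY4 and EGR2), against 14.05%. Of the 15 highest genes 11 had a promoter in the table and none held any of the 3 motifs. Of the 15 lowest genes 10 had one: LCN2 and ANKRD1 held the AP-1 site, LCN2, ANKRD1 and ID1 the TEAD site, and EGR1 the CArG box. Each motif was searched on both strands and counted apart from the others, without a check for overlap between them, and a match in these windows describes letters only.

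Genes of epithelial junctions and surface were close to even, while keratins spread widely in both directions. Of 34 compared junction and surface genes, 1 was higher by 2-fold or more and 1 lower, with a median log2 ratio of −0.06. The median was −0.41 when intron reads were used. CDH1, the adherens junction cadherin, was at 147 CPM in PC9-GR and 207 CPM in PC9 (log2 ratio −0.49), EPCAM had a log2 ratio of −0.02, and the splicing regulator ESRP1 had −0.22. The exceptions were the sialoglycoprotein CD24, at 102 CPM in PC9-GR and 48.3 CPM in PC9 (log2 ratio 1.06, but −0.30 in intron reads), and the epithelial transcription factor ELF3, at 62.5 CPM in PC9-GR and 140 CPM in PC9 (log2 ratio −1.15). The tight junction protein CLDN1 was at −0.89 and the desmosomal cadherins DSC2 and DSG2 at −0.83 and −0.71. Both cadherins lie in the lower stretch of chromosome 18 described further on.

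Of 13 keratins 3 were higher by 2-fold or more, beside 2.41% of all genes, and 1 lower, beside 1.65%. Beside KRT17 and KRT81, the higher one was KRT6A, a keratin of activated keratinocytes, at 440 CPM in PC9-GR and 204 CPM in PC9 (log2 ratio 1.11). KRT5, a basal keratin, was at 65.7 CPM in PC9-GR and 36.6 CPM in PC9 (log2 ratio 0.83). The simple-epithelial keratins KRT7, KRT18 and KRT19 lay between −0.42 and 0.09, and KRT8 was at 1685 CPM in PC9-GR and 2584 CPM in PC9 (log2 ratio −0.62). Within the family, KRT13 was thus the one lower by 2-fold or more, and the abundant simple-epithelial keratins stayed within 2-fold. Squamous and basal genes as a list had 2 of 11 members at least 2-fold higher, KRT17 and KRT6A themselves, and 0 lower. TP63, the basal lineage factor, had 228 reads in PC9-GR and 107 in PC9 and did not reach 10 CPM. Among CEACAM and mucin genes, MUC4 was at 0.58, MUC1 at −0.34 and MUC16 at −0.65.

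Mesenchymal genes above the limit were mostly higher in PC9-GR. Only 8 of 21 listed transition factors and cytoskeletal genes reached 10 CPM, so the list speaks for less than its name. Of these 4 were at least 2-fold higher, beside 2.41% of all genes, and 0 lower, and the median log2 ratio was 0.93 in exon reads and 0.53 in intron reads. In intron reads VIM (0.995) and TAGLN (0.23) were under 2-fold. VIM, the intermediate filament vimentin, was at 101 CPM in PC9-GR and 31.0 CPM in PC9 (log2 ratio 1.68). SNAI2, a transcriptional repressor of epithelial genes, was at 18.3 CPM in PC9-GR and 8.20 CPM in PC9 (log2 ratio 1.07). The actin-binding proteins TPM2 and TAGLN had log2 ratios of 1.16 and 1.54. SNAI2 and TAGLN (3.16 CPM in PC9) passed the limit only through PC9-GR, so the filter set their direction. The level of KRT8 per transcript length remained far above that of VIM: KRT8 was at 837 TPM in PC9-GR and 1310 TPM in PC9, and VIM at 65.7 TPM in PC9-GR and 20.5 TPM in PC9.

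Many matrix proteins were higher in PC9-GR. Of 26 compared collagens and other matrix proteins 10 were higher by 2-fold or more, beside 2.41% of all genes, and 1 was at least 2-fold lower. The median log2 ratio was 0.41. FN1, COL5A1 and the microfibril collagen COL6A3 (10.6 CPM in PC9-GR, 1.08 CPM in PC9, log2 ratio 2.48) stood highest. SPOCK1, a secreted proteoglycan, was at 134 CPM in PC9-GR and 27.5 CPM in PC9 (log2 ratio 2.24), the fibrillin FBN1 was at 28.1 CPM in PC9-GR and 5.61 CPM in PC9 (log2 ratio 2.14), and SPARC, a collagen-binding protein, was at 53.9 CPM in PC9-GR and 12.9 CPM in PC9 (log2 ratio 1.98). COL17A1 of the hemidesmosome and the TGF-beta-induced TGFBI were also higher, at 1.48 and 1.04. Among the higher genes COL5A1, COL6A3, FBN1 and COL16A1 were under 10 CPM in PC9. They passed the limit only through PC9-GR, so the filter set their direction. The short-chain collagen COL8A1 was lower, at 29.8 CPM in PC9-GR and 94.9 CPM in PC9 (log2 ratio −1.64). COL1A1, the main collagen of fibroblasts, was at 17.2 CPM in PC9-GR and 14.2 CPM in PC9 (log2 ratio 0.25).

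Basement membrane collagens were looked at as a set of their own after the values had been seen. COL4A3 was at 12.4 CPM in PC9-GR and 2.45 CPM in PC9 (log2 ratio 1.96), and COL4A4 at 29.96 CPM in PC9-GR and 6.74 CPM in PC9 (log2 ratio 2.0). COL4A5 and COL4A6 lay at 0.44 and 0.51. COL4A3 and COL4A4 are neighbours that run in opposite directions from 1 shared start region, and their RefSeq starts (GRCh38.p14) lie 419 bases apart. COL4A3 and COL4A4 were both under 10 CPM in PC9 and passed the limit only through PC9-GR, so the filter set their direction. The promoter windows of the pair are shown because of this shared start region. COL4A3 is on the plus strand (chr2:227164374-227164673) and COL4A4 on the minus strand (chr2:227164156-227164455), and capitals mark the 82 bases that both windows cover, each read on its own strand.

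COL4A3: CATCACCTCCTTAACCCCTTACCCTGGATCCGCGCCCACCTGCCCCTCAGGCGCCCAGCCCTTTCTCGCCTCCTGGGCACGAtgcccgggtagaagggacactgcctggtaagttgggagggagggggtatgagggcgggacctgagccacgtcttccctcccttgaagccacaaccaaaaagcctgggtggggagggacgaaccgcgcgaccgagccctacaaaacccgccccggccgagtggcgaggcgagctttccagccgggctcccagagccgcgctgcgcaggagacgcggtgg
COL4A4: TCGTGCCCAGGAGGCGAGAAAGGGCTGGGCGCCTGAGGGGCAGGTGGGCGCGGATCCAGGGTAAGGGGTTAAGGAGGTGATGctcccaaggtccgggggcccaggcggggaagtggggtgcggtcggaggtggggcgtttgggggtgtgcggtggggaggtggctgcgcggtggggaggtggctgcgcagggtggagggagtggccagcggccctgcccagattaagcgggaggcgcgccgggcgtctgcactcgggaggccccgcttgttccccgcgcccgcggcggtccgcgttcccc

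Laminins and integrins anchor epithelial cells to the basement membrane. LAMB3, a laminin beta chain, was at 877 CPM in PC9-GR and 396 CPM in PC9 (log2 ratio 1.14), and LAMA3, an alpha chain, at 969 CPM in PC9-GR and 545 CPM in PC9 (log2 ratio 0.83). Per transcript length LAMB3 was above LAMA3 in both states, with LAMB3 at 479 TPM in PC9-GR and 221 TPM in PC9, and LAMA3 at 181 TPM in PC9-GR and 104 TPM in PC9. Of 18 compared laminins and integrins 2 were at least 2-fold higher and 1 lower. The lower one was the integrin subunit ITGB8, at 24.4 CPM in PC9-GR and 55.0 CPM in PC9 (log2 ratio −1.14), and the fibronectin receptor subunit ITGA5 was at 0.81. Among extracellular proteases and inhibitors 1 of 16 was at least 2-fold higher and 2 were lower. The lower ones were PLAT, a plasminogen activator, at 20.7 CPM in PC9-GR and 46.4 CPM in PC9 (log2 ratio −1.13), and TFPI2, a protease inhibitor with 51.4% unique reads (log2 ratio −1.44).

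**Figure D3:**
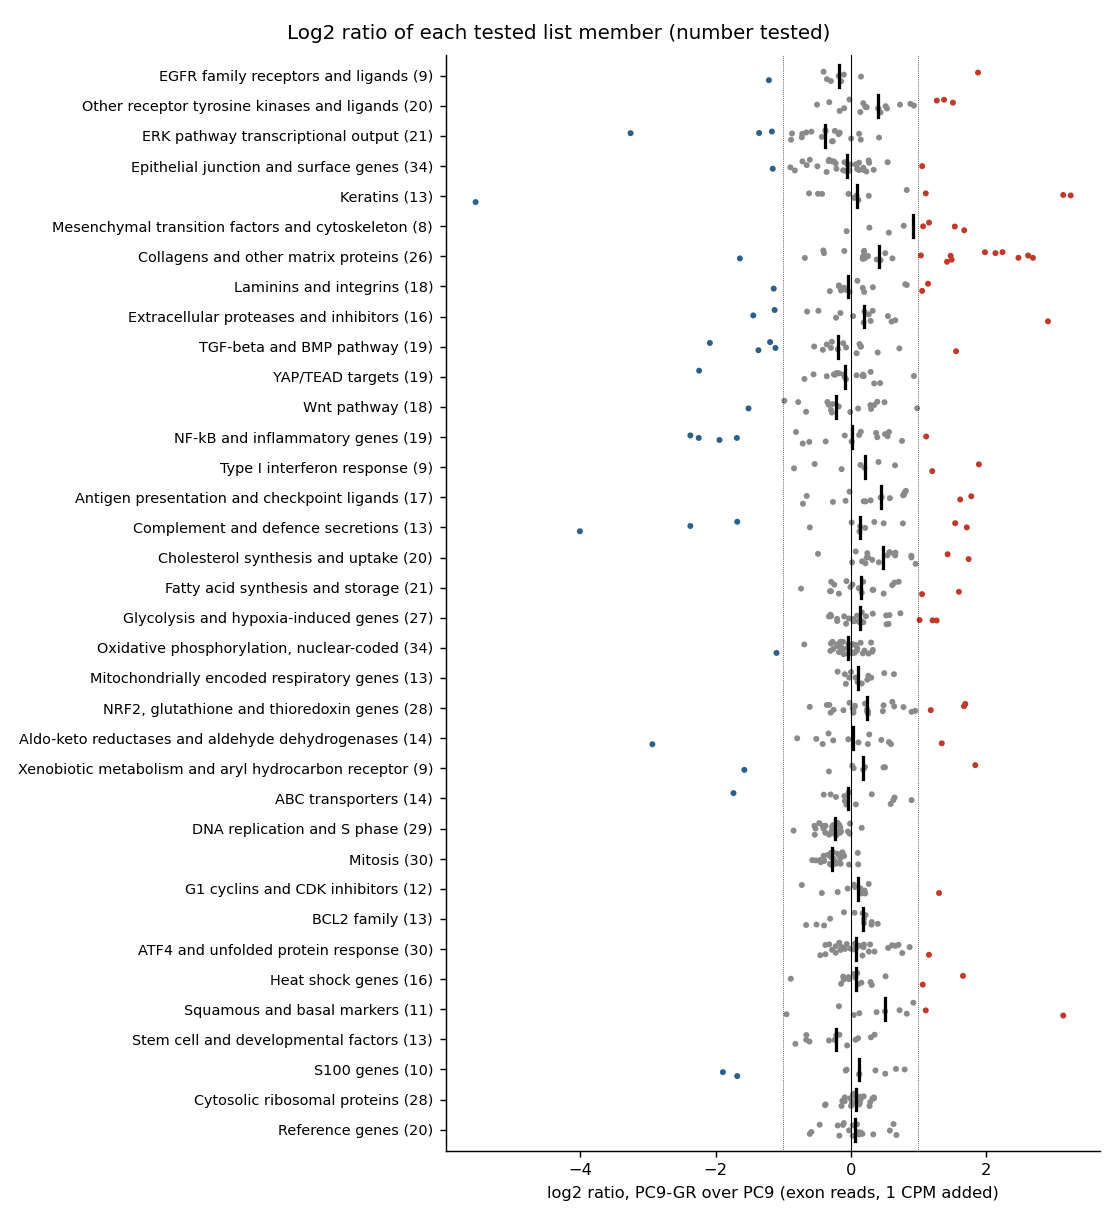
Log2 ratio of PC9-GR over PC9 for every compared member of gene lists with at least 8 such members (number in brackets), with members at least 2-fold higher in red and at least 2-fold lower in blue. Black bars are list medians, which run from −0.37 for the ERK-induced genes to 0.93 for the mesenchymal list, and dotted lines mark 2-fold.

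Genes of the TGF-beta and BMP pathway, which induces many matrix genes, were spread in both directions. Of 19 compared, 1 was higher by 2-fold or more, beside 2.41% of all genes, and 4 lower, beside 1.65%. The median log2 ratio was −0.19. The median was −0.69 in intron reads. ID1, a BMP target, was at 14.1 CPM in PC9-GR and 63.2 CPM in PC9 (log2 ratio −2.08), while its relative ID4 was at 10.5 CPM in PC9-GR and 2.92 CPM in PC9 (log2 ratio 1.56). The signal transducers SMAD2 (34.4 CPM in PC9-GR, 90.1 CPM in PC9, log2 ratio −1.37) and SMAD4 (28.2 CPM in PC9-GR, 62.1 CPM in PC9, log2 ratio −1.11) were lower, and both lie in the stretch of chromosome 18 described further on. The co-receptor TGFBR3 was at −1.19 and the receptors TGFBR1 and TGFBR2 at 0.40 and −0.29. YAP/TEAD targets had 0 of 19 members at least 2-fold higher and 1 lower, ANKRD1, at 1.51 CPM in PC9-GR and 10.9 CPM in PC9 (log2 ratio −2.24). Of 18 Wnt pathway genes 0 were at least 2-fold higher and 1 lower, the ligand WNT11, at 6.09 CPM in PC9-GR and 19.2 CPM in PC9 (log2 ratio −1.51). Of the Notch genes, NOTCH3 was at −0.82 and the target HES1 at −0.66.

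Inflammatory genes were spread in both directions. Of 19 compared NF-kB and inflammatory genes, 1 was higher by 2-fold or more, beside 2.41% of all genes, and 4 lower, beside 1.65%. The median lay near 0, on either side of it depending on the scaling. Beside LCN2 and TNFAIP2, the lower ones were the neutrophil chemokine CXCL8, at 6.13 CPM in PC9-GR and 26.4 CPM in PC9 (log2 ratio −1.94), and NFKBIZ, a nuclear co-factor of NF-kB, at 25.02 CPM in PC9-GR and 82.6 CPM in PC9 (log2 ratio −1.68). The higher one was the cytokine IL11, at 70.6 CPM in PC9-GR and 32.0 CPM in PC9 (log2 ratio 1.12). TNFAIP3, IL1A and IL1B lay between 0.54 and 0.76. The defence proteins S100A9 and S100P were also lower, at 19.8 CPM in PC9-GR and 65.5 CPM in PC9 (log2 ratio −1.68) and at 9.32 CPM in PC9-GR and 37.3 CPM in PC9 (log2 ratio −1.89). Within the complement system, C3 was lower while the protease C1S was at 29.96 CPM in PC9-GR and 9.61 CPM in PC9 (log2 ratio 1.54) and its inhibitor SERPING1 at 10.955 CPM in PC9-GR and 2.64 CPM in PC9 (log2 ratio 1.72).

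Genes of antigen presentation and checkpoint ligands, taken as 1 list, were mostly higher. Of 17 compared, 12 had a log2 ratio above 0, beside 4769 of all 9850 genes, and the median was 0.44. At least 2-fold higher were 2, beside 2.41% of all genes, and 0 were lower. HLA-B, a classical class I molecule, was at 214 CPM in PC9-GR and 61.6 CPM in PC9 (log2 ratio 1.78), and HLA-F was at 10.8 CPM in PC9-GR and 2.83 CPM in PC9 (log2 ratio 1.62). HLA-C and the light chain B2M lay at 0.79 and 0.58, and NLRC5, the class I transactivator, was at 0.80. On the lower side were PSMB10 at −0.71, PSMB8 at −0.26 and TAP2 at −0.02, the last with 5.10% unique reads. PSMB10 was under 10 CPM in PC9-GR and passed the limit only through PC9, so the filter set its direction. The class I genes are near copies of each other and highly variable, so reads may be split among them. Uniquely mapping reads made up 99.1% for HLA-B and 99.1% for HLA-F, but 76.3% for HLA-C, whose value is uncertain. CD274, the checkpoint ligand PD-L1, was at 16.6 CPM in PC9-GR and 9.0 CPM in PC9 (log2 ratio 0.82), and CD47 was at −0.65. Only 9 of 36 interferon-induced genes reached 10 CPM. Of these OASL (log2 ratio 1.89) and ISG15 (1.2) were at least 2-fold higher, beside 2.41% of all genes, and 0 lower. In PC9 OASL was at 2.21 CPM and ISG15 at 6.31 CPM. OASL, ISG15, HLA-F and CD274 passed the limit only through PC9-GR, so the filter set their direction.

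Genes of cholesterol synthesis were mostly higher. Of 20 compared genes 19 had a log2 ratio above 0, beside 4769 of all 9850 genes, and the median was 0.48. At least 2-fold higher were 2, beside 2.41% of all genes, and 0 were lower. SQLE, the squalene epoxidase, was at 75.4 CPM in PC9-GR and 21.8 CPM in PC9 (log2 ratio 1.74), and MSMO1, a sterol demethylase step, was at 41.8 CPM in PC9-GR and 14.8 CPM in PC9 (log2 ratio 1.43). HMGCS1 and LSS, an early and a late enzyme of the pathway, were at 0.96 and 0.90, and SREBF2, the transcription factor of the pathway, was at 191 CPM in PC9-GR and 102 CPM in PC9 (log2 ratio 0.90). Fatty acid genes were less uniform, with 2 of 21 at least 2-fold higher and 0 lower. The desaturase SCD was at 33.2 CPM in PC9-GR and 10.3 CPM in PC9 (log2 ratio 1.60), with 1 intron read in PC9-GR and 5 in PC9 on the other side. The desaturase FADS2 was at 1.05, under 2-fold in TPM, and the synthase FASN and the factor SREBF1 were at −0.31 and −0.74.

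In energy metabolism, 3 of 27 glycolysis and hypoxia-induced genes were at least 2-fold higher, beside 2.41% of all genes, and 0 lower. These were NDRG1, a hypoxia-induced gene, at 103 CPM in PC9-GR and 41.9 CPM in PC9 (log2 ratio 1.27), the enolase ENO2 at 92.3 CPM in PC9-GR and 39.3 CPM in PC9 (log2 ratio 1.21), and the mitophagy receptor BNIP3 at 65.6 CPM in PC9-GR and 31.9 CPM in PC9 (log2 ratio 1.02, under 2-fold in TPM). The main glycolytic enzymes GAPDH, ENO1, PKM and LDHA lay between −0.30 and 0.12. None of the 34 nuclear-coded respiratory genes was at least 2-fold higher, and the 1 that was lower, ATP5F1A (log2 ratio −1.10), lies on chromosome 18.

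Redox and detoxifying enzymes differed one by one. Of 28 NRF2, glutathione and thioredoxin genes 3 were at least 2-fold higher, beside 2.41% of all genes, and 0 lower. Their median was 0.24. The glutathione transferase GSTM3 was at 93.3 CPM in PC9-GR and 28.1 CPM in PC9 (log2 ratio 1.69), the selenoprotein SELENOM was at 1.67, and the secreted peroxidase GPX3 was at 196 CPM in PC9-GR and 85.8 CPM in PC9 (log2 ratio 1.18). NQO1, a classical NRF2 target, was at −0.35. The aldo-keto reductase AKR1C1 was at 1190 CPM in PC9-GR and 468 CPM in PC9 (log2 ratio 1.35), AKR1C3 and AKR1B10 were at 0.45 and 0.60, and AKR1B1 was at −0.42. In the aldehyde dehydrogenases, ALDH1A3 was at 674 CPM in PC9-GR and 1168 CPM in PC9 (log2 ratio −0.79), on the same side as ALDH3A1. The aryl hydrocarbon receptor repressor AHRR was at 1.84 and the receptor's target CYP1B1 at −1.57. None of 14 ABC transporters was at least 2-fold higher, and the cholesterol exporter ABCA1 was lower, at 19.1 CPM in PC9-GR and 66.0 CPM in PC9 (log2 ratio −1.73). The drug exporter ABCG2 was at −0.40.

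Most cell cycle genes were lower by small amounts in exon reads. Of 29 compared DNA replication and S phase genes 28 had a log2 ratio below 0, with a median of −0.23, and of 30 mitosis genes 28 were below 0, with a median of −0.27. Over all 9850 compared genes 5081 were below 0. No member of either list reached 2-fold in either direction. In intron reads the medians were −0.17 for the S phase genes and −0.09 for the mitosis genes, the second close to the −0.07 of all genes measured there. The replication clamp PCNA was at 171 CPM in PC9-GR and 223 CPM in PC9 (log2 ratio −0.38), the topoisomerase TOP2A was at 265 CPM in PC9-GR and 394 CPM in PC9 (log2 ratio −0.57), and the proliferation marker MKI67 was at 238 CPM in PC9-GR and 313 CPM in PC9 (log2 ratio −0.40). The cyclin-dependent kinase inhibitor CDKN1A was higher, at 38.9 CPM in PC9-GR and 15.1 CPM in PC9 (log2 ratio 1.31). The cell cycle brake RB1 had a log2 ratio of 0.21.

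The BCL2 family, which sets the threshold for apoptosis, had 0 of 13 members past 2-fold. BCL2L11, the BH3-only protein BIM that EGFR inhibitors are known to induce, was at 15.4 CPM in PC9-GR and 14.8 CPM in PC9 (log2 ratio 0.06). The anti-apoptotic MCL1 was at −0.10 and BCL2L1 at 0.31. Of 30 genes of the ATF4 and unfolded protein responses 1 was at least 2-fold higher, the asparagine synthetase ASNS, at 27.4 CPM in PC9-GR and 11.7 CPM in PC9 (log2 ratio 1.16), and 0 were lower. Of the heat shock genes, HSP90AA1 had the largest negative difference in CPM of all genes compared, at 3950 CPM in PC9-GR and 7304 CPM in PC9 (log2 ratio −0.89), while its paralogue HSP90AB1 was at 2091 CPM in PC9-GR and 2137 CPM in PC9. HSPB8, a small heat shock protein, was at 1.66. Cytosolic ribosomal proteins and reference genes each had 0 members past 2-fold, with medians of 0.08 and 0.06.

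The chorionic gonadotropin beta genes, which placenta and some carcinomas express, were looked at after their values had been seen. CGB8 had 485 reads in PC9-GR and 13 in PC9, a log2 ratio of 3.69, and CGB5 had 316 reads in PC9-GR and 20 in PC9, a log2 ratio of 2.84. Only 49.4% of CGB8 reads and 39.0% of CGB5 reads mapped uniquely, so how the total divides between the copies is uncertain. In unique reads alone the log2 ratios were 2.87 for CGB8 and 2.08 for CGB5. The promoters show how alike the copies are. CGB5 is on the plus strand (RefSeq, GRCh38.p14, chr19:49043598-49043897) and CGB8 on the minus strand (chr19:49049062-49049361), and capitals mark the longest run of letters that both windows share, 101 bases.

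CGB5: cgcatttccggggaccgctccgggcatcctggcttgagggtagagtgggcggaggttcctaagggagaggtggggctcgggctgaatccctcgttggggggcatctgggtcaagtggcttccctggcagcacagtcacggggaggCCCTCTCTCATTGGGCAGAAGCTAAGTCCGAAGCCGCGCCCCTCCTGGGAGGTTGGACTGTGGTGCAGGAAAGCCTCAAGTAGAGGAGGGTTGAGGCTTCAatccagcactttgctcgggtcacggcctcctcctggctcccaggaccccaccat
CGB8: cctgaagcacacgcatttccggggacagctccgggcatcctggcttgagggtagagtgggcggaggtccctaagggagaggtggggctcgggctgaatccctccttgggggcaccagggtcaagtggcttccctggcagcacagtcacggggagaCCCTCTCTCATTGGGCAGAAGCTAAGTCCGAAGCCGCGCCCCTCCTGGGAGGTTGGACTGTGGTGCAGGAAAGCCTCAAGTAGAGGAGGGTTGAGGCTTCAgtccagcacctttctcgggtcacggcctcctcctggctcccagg

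Intron reads come largely from unspliced RNA and gave a second measurement from the same 2 libraries. Intron CPM is scaled to all intron reads of a library. Of the 9111 compared genes that also had at least 10 intron CPM in either library, 274 were at least 2-fold higher in PC9-GR, 3.01%, and 393 were lower by 2-fold or more, 4.31%, with a median log2 ratio of −0.07. Of the genes at least 2-fold higher in exon reads 195 could be measured in introns, and 187 of these lay on the same side and 111 past 2-fold. Over all 9111 genes 6247, or 68.6%, lay on the same side in both measures. Of those at least 2-fold lower, 149 could be measured, and 149 lay on the same side and 98 past 2-fold. None of the genes measured in both was past 2-fold in opposite directions. SCD, with too few intron reads to be included, had log2 ratios of 1.60 in exons and −1.31 in introns. Across the 9111 genes Pearson's r of the log2 ratios was 0.65 and Spearman's rho 0.56, which describes these genes of 1 pair of libraries and is not a test over independent samples. C3 had 20 intron reads in PC9-GR and 437 in PC9 (log2 ratio −4.26), and DOCK10 111 in PC9-GR and 7 in PC9 (3.80).

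Some genes had a gap between the measures. SPOCK1 was higher in exon reads (log2 ratio 2.24) but had 120 intron reads in PC9-GR and 146 in PC9 (log2 ratio −0.19). GSDME, a pore-forming gasdermin, was at 49.99 CPM in PC9-GR and 12.5 CPM in PC9 in exons (log2 ratio 1.91) and had 175 intron reads in PC9-GR and 180 in PC9 (log2 ratio 0.05). LAMB3 had an intron log2 ratio of 0.26, below its exon value, and LAMA3 had −0.83 in introns against 0.83 in exons. For FN1 the values were 2.62 in exons and 1.11 in introns. GSTM3 stood on the other side, with 1.69 in exons and 3.04 in introns, the second from 34 intron reads in PC9-GR and 3 in PC9. EGR1 had 1 intron read in PC9-GR and 2 in PC9, and ID1 none, so introns give no second measurement there.

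**Figure D4:**
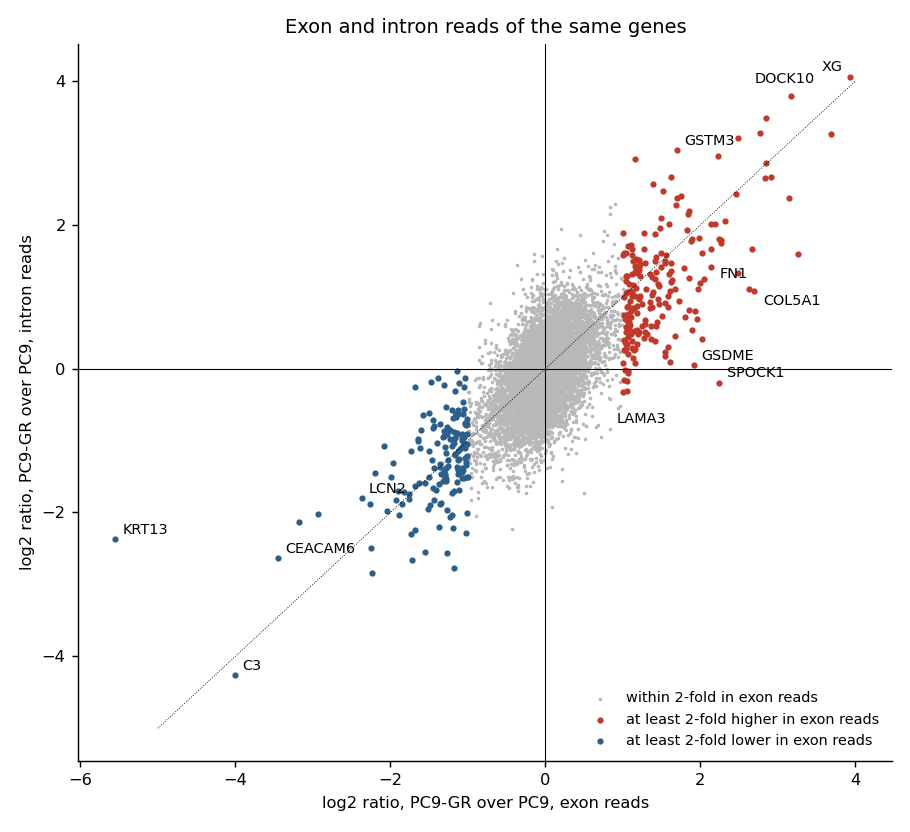
Log2 ratio of PC9-GR over PC9 in exon reads (horizontal) and intron reads (vertical) for the 9111 genes measurable in both, with genes at least 2-fold higher in exon reads in red and at least 2-fold lower in blue. All 149 blue genes lie below 0 in introns, and SPOCK1 and GSDME lie near 0 in introns while far to the right in exons.

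The lower genes were unevenly spread over the genome. Chromosome 18 held 145 of the compared genes, 1.47%, but 60 of the 163 lower genes, 36.8%, and 0 of the 237 higher ones. Its median log2 ratio was −0.83 in exon reads and −0.88 in intron reads, with 133 of 145 genes below 0. The medians of the other chromosomes lay between −0.21 on chromosome 16 and 0.14 on chromosome 6.

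Along chromosome 18 the values differed on either side of the gap between MIB1 and RBBP8. The 43 compared genes up to MIB1, whose end lies at 21870957, had a median log2 ratio of −0.13 and 0 members at least 2-fold lower. From RBBP8 (start 22798261) to ADNP2 near the end of the chromosome (end 80147523), 102 genes had a median of −1.07, 100 were below 0 and 60 at least 2-fold lower. In intron reads 99 of these could be measured, all 99 were below 0, and their median was −1.15. The edge was chosen after the values were seen. The whole stretch summed to 4425 CPM in PC9-GR and 7787 CPM in PC9, and the genes before it to 4066 CPM in PC9-GR and 4342 CPM in PC9. In the other lines, those of the 102 genes that were compared there had medians of −0.02 in HCC827 and −0.35 in H1975. For the genes up to MIB1 these medians were −0.06 in HCC827 and −0.31 in H1975. Messenger RNA counts do not measure DNA, and copy number was not tested.

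The stretch includes SMAD2, SMAD4 and SMAD7 (log2 ratios −1.37, −1.11 and −0.41), the AKT phosphatase PHLPP1 (8.63 CPM in PC9-GR, 30.7 CPM in PC9, −1.72), the secretory GTPase RAB27B (20.5 CPM in PC9-GR, 75.1 CPM in PC9, −1.82) and ATP5F1A (289 CPM in PC9-GR, 620 CPM in PC9, −1.10). PHLPP1, RAB27B, SMAD4 and SMAD7 were outside the rule for named genes and were chosen after their values were seen. The 2 genes above 0 were LAMA3 and SERPINB7 (11.8 CPM in PC9-GR, 7.96 CPM in PC9, 0.52). LAMA3 lies among lower neighbours, and its intron value of −0.83 was on their side.

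**Figure D5:**
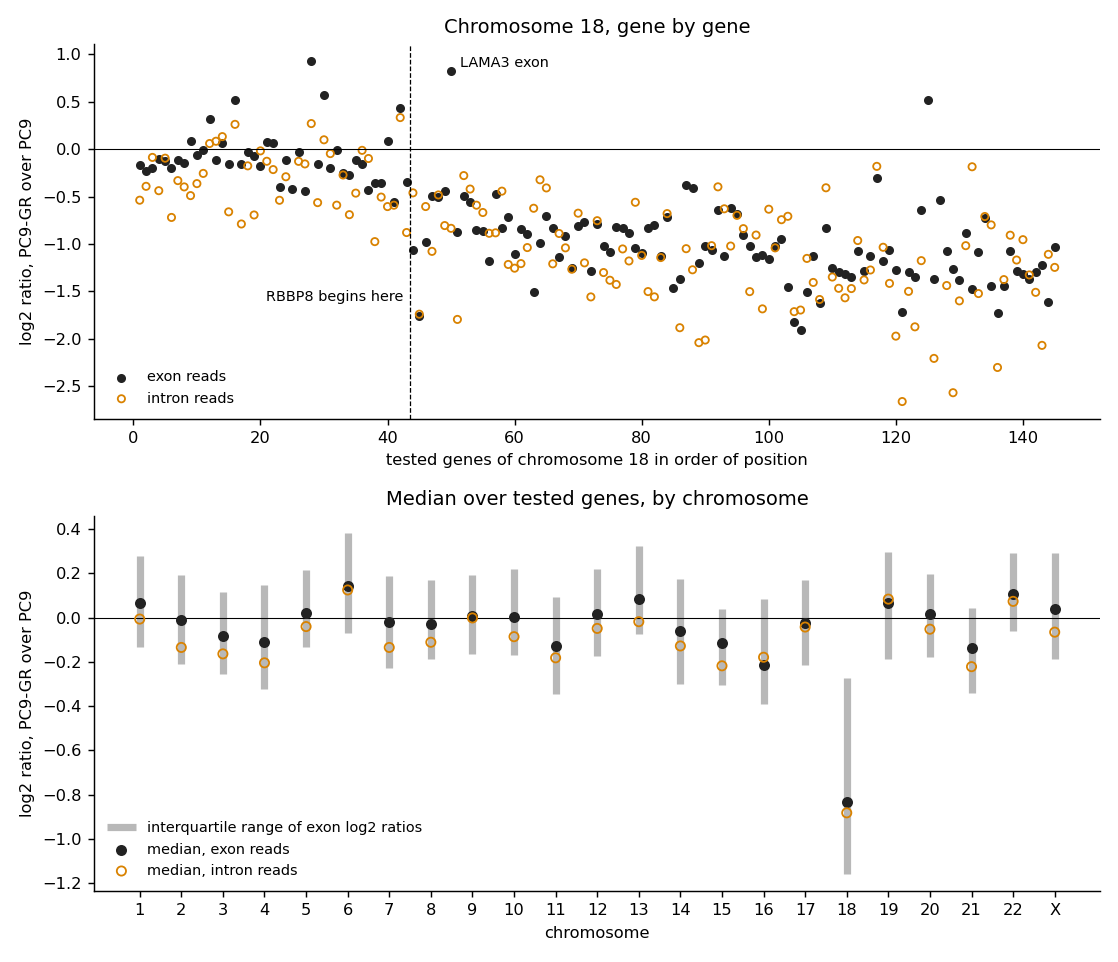
Upper panel, log2 ratio of PC9-GR over PC9 for the 145 compared genes of chromosome 18 in order of position, in exon reads (black) and intron reads (orange), with a dashed line where RBBP8 begins. Lower panel, medians by chromosome with the interquartile range of exon values in grey. Chromosome 18 stands at −0.83, apart from all others.

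Smaller regional shifts were seen in windows of 50 neighbouring genes. Of 380 windows, which overlap, the middle 50% had medians between −0.09 and 0.07, 18 lay at or below −0.3 and 8 at or above 0.3. The lowest outside chromosome 18 was ENTPD5 to ITPK1 on chromosome 14 (−0.54 in exons, −0.49 in introns), followed by WDR1 to LIMCH1 on chromosome 4 (−0.46 in exons, −0.46 in introns). The highest were CEBPA to SIRT2 on chromosome 19 (0.49 in exons, 0.59 in introns) and HEBP2 to GTF2H5 on chromosome 6 (0.41 in exons, 0.24 in introns).

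The differences of the PC9 pair were set beside those of the other pairs, which share no library with it. Of the 237 genes higher in PC9-GR, 143 were compared in HCC827, and 73 of these (51.0%) were at least 2-fold higher in HCC827-GR, where 9.25% of all compared genes were, while 17 were at least 2-fold lower. Of the 163 lower genes, 115 were compared in HCC827, 22 (19.1%) were at least 2-fold lower there, where 9.23% of all genes were, and 18 were at least 2-fold higher. In H1975, selected with another drug, 15 of 135 higher genes (11.1%, against 1.54% of all genes) were higher by 2-fold or more and 20 lower, and 14 of 112 lower genes (12.5%, against 3.95%) were lower by 2-fold or more and 4 higher. The PC9 genes left out of these shares were under 10 CPM in both libraries of the other line. A gene under that limit in a parental line was compared there only if it was higher in the resistant one. The shares of all genes cover every gene compared in that line, also those not compared in PC9. Taken the other way, the shared genes made up 7.74% of the higher and 2.34% of the lower genes of HCC827, and 9.68% and 3.52% of those of H1975. FN1 had log2 ratios of 2.62 in PC9, 1.81 in HCC827 and 0.51 in H1975, COL5A1 2.69, 5.53 and 0.53, and EGR1 −3.26, −5.39 and −1.6 in the same order of lines. EGFR had −0.14, −4.13 and −0.87, and CDH1 −0.49, −4.44 and −4.50. KRT13 was below the limit of 10 CPM in both other lines. None of these differences between lines could be tested with 1 library per state.

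Markers of other cell types were near absent with a few exceptions. Of 6 leukocyte markers, PTPRC had 10 reads in PC9-GR and 3 in PC9 and TYROBP had 0 in both. CD68, a lysosomal protein that macrophages and other cells make, was at 121 CPM in PC9-GR and 49.7 CPM in PC9 (log2 ratio 1.26, but −0.72 in intron reads). The 4 endothelial markers summed to 4.91 CPM in PC9-GR and 19.6 CPM in PC9, with PECAM1 at 101 reads in PC9-GR and 298 in PC9, CDH5 at 10 reads in PC9-GR and 117 in PC9, and VWF and KDR at 6 reads or fewer in each. Of 6 fibroblast markers, which bear on the matrix genes, COL1A1 was the only one above 10 CPM, DCN was at 0 in both, and LUM, COL1A2 and THY1 had 5 reads or fewer in each. A wider list of 11 fibroblast markers had 2 compared members. Their log2 ratios were 0.25 and 2.48, the values given above for COL1A1 and COL6A3. The part of these markers in any result was not tested. The neuroendocrine markers summed to 0.940 CPM in PC9-GR and 0.565 CPM in PC9.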

How the data were processed

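Per the labels' protocols, RNA was extracted with GENEzol and stranded mRNA libraries were made with a TruSeq kit. Trimmomatic, Bowtie2 and hg38 are named, without roles, in the submitters' processing notes. The sources used here name no counter or annotation and do not say whether counting used strand, so reads of overlapping and antisense genes cannot be told apart. The authors deposited whole-number counts for each gene. Per the file headers, intron reads have columns of their own, and exon reads are given both in total and for unique mappings. The deposited TPM values were used to compare genes per length and as an alternative.

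Counts were scaled to 1000000 exon (or intron) reads per library, as CPM. Genes needed at least 10 CPM in either library, 1 CPM was added before log2 ratios, and genes past 2-fold were counted. Intervals of ratios (95%) come from the exact binomial method of Clopper and Pearson. A floor of 3 counts was used for a count of 0. Genes with under 80% unique reads are called uncertain. With 1 library per state no test across genes was run. edgeR 4.0.16 and DESeq2 1.42.0 (R 4.3.3) supplied scaling factors for alternatives alone. Python 3.11.15, pandas 2.3.3, numpy 2.4.6, scipy 1.17.1 and matplotlib 3.10.9 were used, and the ratios were tested on simulated data.

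The gene lists (45, and 4 added after values were seen) and the named genes were chosen with earlier results of these data known. The rule for named genes took the 15 highest and lowest log2 ratios among protein-coding genes, up to 4 members per list by size of ratio, the 5 highest and lowest differences in CPM and in exon minus intron log2 ratio, and fixed genes of EGFR signalling and lineage. Other list members were named after their values were seen. Some genes that the rule takes are not reported here. Alternatives were other scalings, unique reads, intron reads, TPM, other added constants and filters, protein-coding genes alone, and leaving out chromosome 18, the last chosen after seeing the data. No reference genome was needed beyond the RefSeq promoter table.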

Additional observations from a re-analysis of the deposited data

Results flagged for a closer look

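Some genes past 2-fold in PC9 differed by at least 4-fold the other way in another resistant line, and these are flagged because the direction is opposite between lines. With 1 library per state none of these differences was tested. Values are log2 ratios of resistant over parental, and the gap is the PC9 value minus that of the other line.

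Against HCC827, C3 had −4.01 in PC9 and 3.92 in HCC827, a gap of −7.92. ANKRD1 had −2.24 in PC9 and 4.62 in HCC827 (gap −6.87), and CXCL8 −1.94 in PC9 and 3.75 in HCC827 (gap −5.69). HBEGF had −1.21 in PC9 and 2.41 in HCC827 (gap −3.62). In the other direction SCD had 1.60 in PC9 and −3.18 in HCC827 (gap 4.78), and ID4 1.56 in PC9 and −3.01 in HCC827 (gap 4.57). C3 had 490 reads in PC9-GR and 7149 in PC9, and 902 reads in HCC827-GR and 31 in HCC827.

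Against H1975, KRT81 had 3.25 in PC9 and −2.75 in H1975 (gap 6.0), with few unique reads in PC9. ANKRD1 had −2.24 in PC9 and 2.63 in H1975 (gap −4.88), and CD24 had 1.06 in PC9 and −3.51 in H1975 (gap 4.57).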

How the results depend on the processing

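The counts of 237 higher and 163 lower genes stayed within 1.5 times under TMM factors, median-of-ratios factors, library totals without mitochondrial genes, unique reads, TPM, 0.1 CPM added and protein-coding genes alone. With 5 CPM added 147 genes were higher. A minimum of 1 CPM or no filter gave 449 higher and 268 lower genes, and a minimum of 50 CPM gave 62 and 70. Intron reads over the same genes gave 458 lower genes. Without chromosome 18, an alternative chosen after seeing the data, 103 genes were lower and 237 higher. Of 90 named genes past 2-fold, 5 changed direction in intron reads: SCD (−1.31), CD68 (−0.72), CD24 (−0.30), SPOCK1 (−0.19) and DNAJB4 (−0.034). SLX1B was no longer past 2-fold in unique reads, FADS2 and BNIP3 in TPM, 13 with 5 CPM added and 23 in intron reads. Of the 344 genes past 2-fold in exon reads and measured in introns, 97.7% lay on the same side in both, and 98.4% of 186 at a minimum of 50 intron CPM. The median of chromosome 18 lay between −0.88 and −0.78 under its alternatives. The median of the wider list of fibroblast markers could not be given with TPM, where no member passed the filter. The cause of each change was not tested. No paired analysis was possible because each state of PC9 has 1 library, and no spread between replicates is known. Genes of under 10 CPM in both libraries, 11613 in all, were not compared, and 5247 of them had no read in either.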

Other observations

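Further genes, outside the rule for named genes and chosen after their values were seen, also differed. MAPT, the microtubule protein tau, was at 16.8 CPM in PC9-GR and 3.49 CPM in PC9 (log2 ratio 1.99), the beta-tubulin TUBB2B at 89.2 CPM in PC9-GR and 16.7 CPM in PC9 (2.35, with 61.4% unique reads), and the vesicle GTPase RAB3B at 34.8 CPM in PC9-GR and 8.62 CPM in PC9 (1.90). PTHLH, the parathyroid hormone-like peptide, was at 18.8 CPM in PC9-GR and 5.42 CPM in PC9 (1.63), and DIO2, which activates thyroid hormone, at 129 CPM in PC9-GR and 40.9 CPM in PC9 (1.63). The defining neuroendocrine markers CHGA and INSM1 had at most 1 read in either library. The glycoprotein GPNMB was at 31.7 CPM in PC9-GR and 6.46 CPM in PC9 (2.13), the proteoglycan SRGN at 172 CPM in PC9-GR and 41.6 CPM in PC9 (2.02), and the cancer-testis gene MAGEC2 at 53.1 CPM in PC9-GR and 14.9 CPM in PC9 (1.76).

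Among lower genes, EEF1A2, a translation elongation factor usual in muscle and neurons, was at 130 CPM in PC9-GR and 357 CPM in PC9 (log2 ratio −1.45). The receptor VIPR1 was at 5.48 CPM in PC9-GR and 23.6 CPM in PC9 (−1.92), the lipoxygenase ALOX5 at 18.6 CPM in PC9-GR and 52.7 CPM in PC9 (−1.45), and the ion cotransporter SLC12A2 at 30.2 CPM in PC9-GR and 85.1 CPM in PC9 (−1.47). In a list on iron added after values were seen, 0 of 9 compared genes passed 2-fold, yet the ferritin light chain FTL was at 2421 CPM in PC9-GR and 1279 CPM in PC9 (0.92), the second largest positive difference in CPM after MT-ND4.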
